A study of Mus musculus with 9 samples.

Results

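A set of 10 secreted matrix genes was followed in mouse cardiosphere-derived cells, namely the thrombospondins Thbs1, Thbs2 and Thbs3, tenascin C (Tnc), periostin (Postn), Sparc and its relatives Sparcl1, Smoc1 and Smoc2, and fibronectin (Fn1). They were chosen by gene symbol, as a selection of matricellular genes together with fibronectin, and all 10 were found among the 54532 genes of the deposited table. Gene expression was measured by RNA sequencing in 9 libraries, 3 in each of 3 groups, all from cells of C57BL/6 mice. pECDCs were primary cardiosphere-derived cells grown out of explanted ventricle epicardium, labelled passage 0 and untreated. iECDCs were such cells after transduction with hTERT, the catalytic subunit of human telomerase, at passage 30 and untreated. The SB431542 group was labelled as iECDCs of passage 30 exposed for 3 days to SB431542, which inhibits the TGF-β type I receptor. The hTERT was delivered by a lentivirus under a CMV promoter, and infected cells were selected with puromycin. By these labels the iECDC and SB431542 groups carry hTERT and the pECDC group does not, so passage and hTERT cannot be told apart between them. For the treated libraries the study's methods name other cells, an epithelial clone from pECDCs, and for pECDCs a later passage, and the groups used here are those of the sample labels.

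Matricellular proteins are secreted into the extracellular matrix but serve less as its scaffold than as signals between matrix, growth factors and cell surface receptors. Fibronectin is a fibrillar matrix protein that integrins assemble at the cell surface and to which several matricellular proteins bind. In the heart, several of these genes are known for low activity in the healthy adult tissue and strong activity during development and after injury, when TGF-β is one of the signals that regulate them.

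The tripeptide arginine-glycine-aspartate, through which integrins hold fibronectin, is a feature that the choice of genes did not use. In the longest coding sequence of each gene in GENCODE release M21, its codons were found in 3 of the 10 genes, Thbs1, Thbs2 and Fn1, and in 1563 of 21522 genes (7.26%) with a coding sequence. The stretches are shown because they set Thbs1 and Fn1, genes of high level here, beside Thbs2, a gene whose level differed between the cell groups. The capitals mark the 3 codons, with 12 bases on each side, 5′ to 3′ on the coding strand.
Thbs1, bases 2779 to 2787 of 3516: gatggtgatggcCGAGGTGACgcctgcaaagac
Thbs2, bases 2782 to 2790 of 3519: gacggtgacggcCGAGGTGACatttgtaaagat
Fn1, bases 4840 to 4848 of 7434: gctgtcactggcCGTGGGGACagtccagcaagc
Fn1, bases 6541 to 6549 of 7434: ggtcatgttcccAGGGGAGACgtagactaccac
Thbs1 and Thbs2 used the same 3 codons, at nearly the same distance from the start, whereas the sites of Fn1 differed from these in the first 2 codons and shared the last.

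Promoters were looked up in a RefSeq table on GRCm38.p6, which matched 5 of the 10 genes (Thbs2, Thbs3, Tnc, Postn and Sparc). The 250 bases before the start site are shown for the 3 of these genes with a mean above 10 FPKM in every group, since their levels followed different patterns over the groups. A set of 5 motifs was searched on both strands in all 32851 promoters of the table. The TATA box core TATAAA was in 12.4% of them, the SMAD-binding core CAGACA in 17.1%, the GC box GGGCGG in 32.7%, the TEAD core GGAATG in 12.6% and the AP-1 element TGANTCA in 6.75%. Capitals mark the matches, written as they read on the gene's strand, so that a match on the other strand appears as its reverse complement.
Thbs2, chr17:14694263-14694512, minus strand: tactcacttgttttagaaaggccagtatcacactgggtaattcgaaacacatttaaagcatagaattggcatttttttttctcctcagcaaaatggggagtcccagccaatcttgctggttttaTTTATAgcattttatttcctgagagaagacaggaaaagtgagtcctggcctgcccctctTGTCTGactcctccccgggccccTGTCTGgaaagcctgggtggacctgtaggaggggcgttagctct
Tnc, chr4:64047016-64047265, minus strand: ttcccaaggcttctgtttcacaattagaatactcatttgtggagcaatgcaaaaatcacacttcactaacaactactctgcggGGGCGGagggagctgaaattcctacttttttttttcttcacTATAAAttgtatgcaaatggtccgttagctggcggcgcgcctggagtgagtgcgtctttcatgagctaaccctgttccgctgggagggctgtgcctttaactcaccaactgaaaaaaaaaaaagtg
Sparc, chr11:55420081-55420330, minus strand: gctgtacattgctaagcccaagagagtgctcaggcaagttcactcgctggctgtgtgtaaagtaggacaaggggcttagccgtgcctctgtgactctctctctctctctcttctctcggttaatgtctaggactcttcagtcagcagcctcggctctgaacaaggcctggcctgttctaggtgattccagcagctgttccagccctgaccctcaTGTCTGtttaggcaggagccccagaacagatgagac
Thbs2 held TATAAA at 126 bases and CAGACA at 67 and 44 bases before its start. Tnc held GGGCGG at 167 and TATAAA at 126 bases before its start, and Sparc held CAGACA at 36 bases. The table also lists a second start site for Tnc, not printed since its window overlaps the one shown, which held CAGACA at 71 bases before it, beyond the TATAAA and GGGCGG already named. The stretch shown for Sparc lies within the gene's annotated span, which extends further upstream in GENCODE M21. None of these motifs overlapped another. A match describes letters and not binding.

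The libraries held 16568306 to 23951392 counted reads each, and 3 counts, taken as the floor, were at most 1.81e-05% of a library. Libraries of a group were compared by a chi-square statistic per degree of freedom over genes, which is about 1 where they differ only by sampling noise. It was 2.70 to 4.23 among the pECDC libraries. iECDC replicate 3 stood apart, with 30.8 and 24.9 against 4.61 for the other pair, and SB431542 replicate 2 more so, with 71.5 and 70.3 against 3.79. Nothing in the labels says that libraries came from separate cultures, and the study's methods state fewer biological replicates per condition than there are libraries in a group, so p-values measure only the spread between these libraries. The labelled cell type was checked by fixed markers. Of 7 mesenchymal and cardiosphere markers, all were above the floor in every group, at a summed level of 688 to 1279 FPKM, and all 4 smooth muscle markers were also above it. The 4 endothelial markers summed to at most 0.144 FPKM in any library, with Pecam1 and Tie1 at the floor in every group. Of 5 epithelial markers Cdh1, Epcam and Krt8 were at the floor in every group, while Tjp1 was at 9.97 to 15.6 FPKM. Of 5 cardiomyocyte markers Myh6, Actn2 and Nppa were at the floor in every group, while Tnnt2 was at 0.437 to 0.655 FPKM in pECDCs, 1.12 to 1.67 FPKM in iECDCs and 0.0429 to 0.250 FPKM in SB431542 libraries. Of 4 haematopoietic markers Adgre1 was at 0 in every library, while Lyz2 was at 0.434 to 0.534, 2.63 to 3.31 and 1.08 to 1.89 FPKM in the 3 groups. Cd68, another of these markers, went the other way between SB431542 and pECDC libraries. Its log2 fold change there was -0.859 (edgeR adjusted p = 0.0220), against 1.61 for Lyz2 (edgeR adjusted p = 0.00569). Cd68 was not called in iECDCs against pECDCs or in SB431542 against iECDCs. The part of Cd68, and of Tnnt2 and Lyz2, whose levels moved with the groups, in the results was not tested. In bulk RNA, fewer cells of a type and less RNA per cell cannot be told apart.

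The 10 genes covered a wide range of levels. FPKM is the count per gene length and per a constant for each library, so genes of a library can be compared on it. The constant was 92.8% of the total count in iECDC replicate 3 and 105% in SB431542 replicate 3, the extremes. In pECDCs the order was Thbs1, Sparc, Fn1, Tnc, Thbs2, Thbs3, Smoc1, Sparcl1, Postn and Smoc2, and the FPKM of neighbours overlapped only between Postn and Smoc2. In iECDCs the order was Thbs1, Sparc, Fn1, Tnc, Smoc1, Thbs2, Thbs3, Postn, Sparcl1 and Smoc2. The ranges there of Sparc and Fn1 overlapped, as did those of Thbs2 and Smoc1 and those of Postn and Sparcl1. In the SB431542 group the order was Thbs1, Fn1, Sparc, Thbs2, Tnc, Smoc1, Thbs3, Sparcl1, Smoc2 and Postn. Fn1 was above Sparc in each library although their ranges overlapped, and the ranges of Thbs2 and Tnc, of Smoc1 and Thbs3, of Thbs3 and Sparcl1, and of Smoc2 and Postn also overlapped. Together the genes took 1.85%, 1.81% and 1.76% of the counts of pECDC replicates 1, 2 and 3, 1.76%, 1.85% and 1.79% of those of the iECDC replicates and 2.02%, 1.37% and 2.03% of those of the SB431542 replicates. SB431542 replicate 2 had the lowest share of all. Thbs1 alone made up 61.1% to 66.6% of these counts in pECDC and iECDC libraries and 45.8% to 51.6% in SB431542 libraries.

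**Figure D1:**
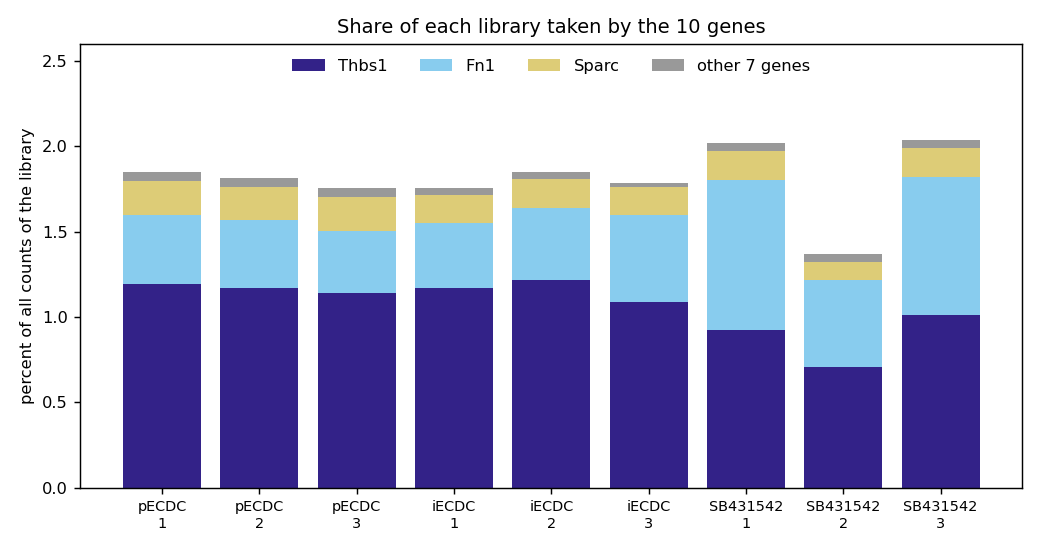
Share of each library's counts (percent, vertical axis) taken by Thbs1, Fn1, Sparc and the other 7 genes together, in the 3 libraries of each group. The total lies between 1.76% and 1.85% in the pECDC and iECDC libraries, and in the SB431542 libraries the Thbs1 segment is smaller and the Fn1 segment larger.

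**Figure D2:**
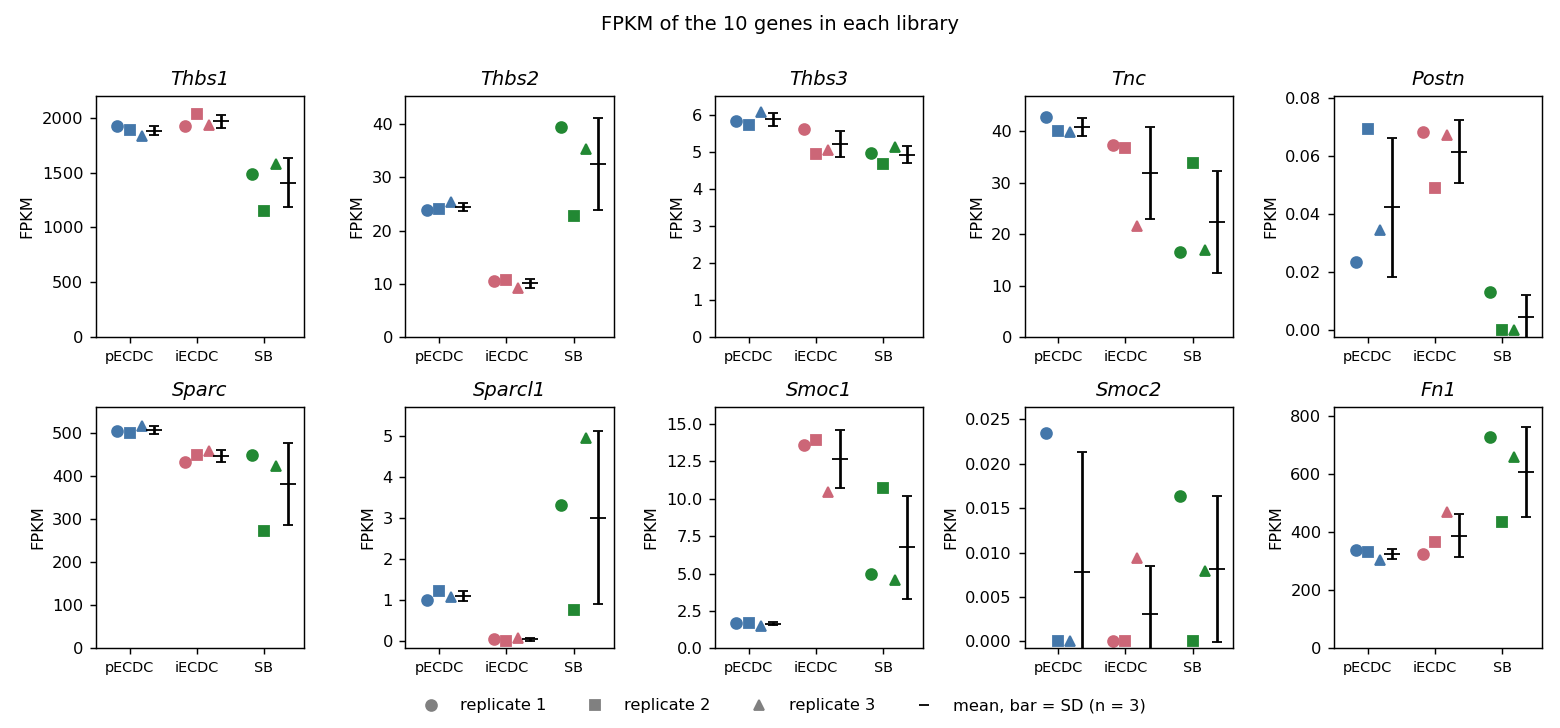
FPKM (vertical axis, with a scale of its own for each gene) of the 10 genes in pECDC, iECDC and SB431542 (SB) libraries. The axis starts at 0, or just below 0 for Postn, Sparcl1 and Smoc2. Symbols are replicates, and the black marks are the mean and SD of 3 libraries, cut at the lower edge of the panel where the SD reaches below it. Thbs2 and Sparcl1 are lowest in iECDCs, Smoc1 is lowest in pECDCs, and SB431542 replicate 2 (square) lies apart from the other treated libraries for most genes.

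Thbs1 (ENSMUSG00000040152, chromosome 2, 118111876 to 118127133, plus strand) encodes thrombospondin 1, which can release TGF-β from its latent form. It was at 1921, 1885 and 1837 FPKM in pECDC replicates 1, 2 and 3, at 1927, 2032 and 1936 FPKM in the iECDC replicates and at 1484, 1154 and 1580 FPKM in the SB431542 replicates. Thbs1 had more counts than any other gene of the table in each pECDC and iECDC library and ranked 2 in each SB431542 library. The iECDC FPKM values lay just above the pECDC values without overlap, and the SB431542 values lay below both. As a share of library counts, Thbs1 took 1.14% to 1.19% in pECDCs and 1.09% to 1.22% in iECDCs, so these groups overlapped. The log2 fold change of iECDCs against pECDCs was 0.05 (SE 0.070, edgeR adjusted p = 0.664). Except where DESeq2 is named, every adjusted p given here comes from the quasi-likelihood test of edgeR, adjusted by Benjamini and Hochberg's method over all genes tested in that comparison, and a call needed a value under 0.05. SB431542 against iECDC gave -0.47 (SE 0.168, edgeR adjusted p = 0.0651) and SB431542 against pECDC gave -0.41 (SE 0.135, edgeR adjusted p = 0.0522), neither of which passed. Without SB431542 replicate 2 these were -0.35 (edgeR adjusted p = 0.0232) and -0.29 (edgeR adjusted p = 6.39e-06). In GENCODE M21 a lincRNA gene, Gm29233, overlaps Thbs1 on the other strand, and whether counting used the strand is not given in the sources used here.

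Thbs2 (ENSMUSG00000023885, chromosome 17, 14665500 to 14694235, minus strand) encodes thrombospondin 2, an inhibitor of blood vessel growth that also takes part in collagen fibre assembly. It was at 23.9, 24.1 and 25.4 FPKM in pECDCs, 10.6, 10.6 and 9.15 FPKM in iECDCs and 39.4, 22.7 and 35.4 FPKM in the SB431542 libraries. The iECDC libraries were the lowest with no overlap, and SB431542 replicate 2 lay below the pECDC libraries while the other treated libraries were above them. From pECDCs to iECDCs Thbs2 fell by 1.28 on the log2 scale, or 2.44-fold (10.1 ± 0.839 against 24.4 ± 0.805 FPKM, mean ± SD, n = 3, SE 0.075, edgeR adjusted p = 1.31e-05). Thbs2 was 3.24-fold higher in SB431542 than in iECDC libraries (32.5 ± 8.68 FPKM, log2 fold change 1.69, SE 0.203, edgeR adjusted p = 0.00150). Against pECDCs the log2 fold change of the treated libraries was 0.42 (SE 0.192, edgeR adjusted p = 0.129), and without SB431542 replicate 2 it was 0.62 (edgeR adjusted p = 3.15e-09).

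Thbs1 and Thbs2, which share their domain layout, stood in different proportions in the groups. The FPKM ratio of Thbs1 to Thbs2 was 80.4, 78.3 and 72.4 in pECDC, 182, 191 and 212 in iECDC and 37.7, 50.8 and 44.6 in SB431542 replicates. The groups did not overlap in this ratio, which was highest in iECDCs.

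Thbs3 (ENSMUSG00000028047, chromosome 3, 89215180 to 89226837, plus strand) encodes thrombospondin 3, a pentameric thrombospondin. It had 5.85, 5.75 and 6.09 FPKM in pECDCs, 5.62, 4.96 and 5.07 FPKM in iECDCs and 4.98, 4.68 and 5.14 FPKM in SB431542 libraries. Its level thus varied least among the 9 tested genes, by 0.26 on the log2 scale between the highest and the lowest group mean. The log2 fold change was -0.19 (SE 0.079, edgeR adjusted p = 0.141) for iECDCs against pECDCs and -0.07 (SE 0.114, edgeR adjusted p = 0.661) for SB431542 against iECDCs. For SB431542 against pECDCs it was -0.25 (SE 0.080, edgeR adjusted p = 0.0478). This call was kept without SB431542 replicate 2 (edgeR adjusted p = 0.0138) and lost without any 1 of the other 5 libraries (edgeR adjusted p between 0.0719 and 0.153). It was also lost with DESeq2 (adjusted p = 0.0522), with no filter on low counts (edgeR adjusted p = 0.0976) and with a block for the replicate number (edgeR adjusted p = 0.106). Mtx1 overlaps Thbs3 on the other strand, so counts of the 2 genes may be mixed.

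Tnc (ENSMUSG00000028364, chromosome 4, 63959785 to 64047015, minus strand) encodes tenascin C, a hexameric protein that weakens the adhesion of cells to fibronectin. Its FPKM was 42.8, 40.0 and 39.8 in pECDCs, 37.4, 36.8 and 21.7 in iECDCs and 16.5, 33.8 and 16.9 in the SB431542 libraries. The 2 libraries that stood apart, iECDC replicate 3 and SB431542 replicate 2, each lay near the other group. The difference between iECDCs and pECDCs was -0.37 (log2, SE 0.178, edgeR adjusted p = 0.194), and -0.15 without iECDC replicate 3 (edgeR adjusted p = 0.0152). The difference between SB431542 and iECDC libraries was -0.50 (log2, SE 0.313, edgeR adjusted p = 0.252). It was -0.92 without SB431542 replicate 2 (edgeR adjusted p = 0.00596). Against pECDCs Tnc was 1.81-fold lower in SB431542 libraries (22.4 ± 9.86 against 40.9 ± 1.67 FPKM, SE 0.266 on the log2 scale, edgeR adjusted p = 0.0431), a call lost without any 1 of the 5 libraries other than SB431542 replicate 2 (edgeR adjusted p between 0.109 and 0.124). Without that replicate the log2 fold change of Tnc was -1.28 (edgeR adjusted p = 7.70e-14).

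Postn (ENSMUSG00000027750, chromosome 3, 54361109 to 54391037, plus strand) encodes periostin, a matrix protein that fibroblasts of the injured heart produce in large amounts. In these cells it was near the floor, with 5, 12 and 7 counts in pECDCs, 12, 7 and 9 counts in iECDCs and 2, 0 and 0 counts in SB431542 libraries. Every SB431542 library was below every untreated one. With the main filter Postn was tested only in iECDCs against pECDCs, where the log2 fold change was 0.57 (SE 0.449, edgeR adjusted p = 0.418). Fits to all 9 libraries and fits with no filter on low counts also tested it in the comparisons with SB431542. Both called Postn lower in the treated libraries than in iECDCs and in pECDCs. With the counts of a group pooled and scaled to library size, iECDCs had 14.4 times the level of SB431542 libraries (28 against 2 counts, exact 95% interval 3.64 to 125) and pECDCs had 9.97 times that level (24 against 2 counts, 2.48 to 87.1). These intervals cover counting error only. The FPKM ratio of Tnc to Postn was between 322 and 1827 in the 6 untreated libraries.

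Sparc (ENSMUSG00000018593, chromosome 11, 55394500 to 55423183, minus strand) encodes a collagen-binding protein, also called osteonectin, that takes part in collagen processing. It was at 504, 499 and 516 FPKM in pECDCs, 432, 449 and 457 FPKM in iECDCs and 448, 272 and 422 FPKM in SB431542 libraries. The pECDC libraries were above all others, and SB431542 replicate 2 was far below the rest. The log2 fold change was -0.20 for iECDCs against pECDCs (SE 0.062, edgeR adjusted p = 0.0602), which passed without iECDC replicate 3 (-0.21, edgeR adjusted p = 1.97e-04). SB431542 against iECDC gave -0.22 (SE 0.194, edgeR adjusted p = 0.420), and -0.03 without SB431542 replicate 2 (edgeR adjusted p = 0.833). SB431542 against pECDC gave -0.40 (SE 0.184, edgeR adjusted p = 0.129), and -0.21 without that replicate (edgeR adjusted p = 2.36e-04).

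Sparcl1 (ENSMUSG00000029309, chromosome 5, 104079111 to 104113733, minus strand) encodes hevin, an anti-adhesive relative of Sparc. It had 72, 72 and 74 counts in pECDC, 3, 1 and 4 counts in iECDC and 171, 47 and 263 counts in SB431542 libraries, or 0.9996, 1.23 and 1.08, 0.0506, 0.0207 and 0.0886, and 3.32, 0.761 and 4.96 FPKM. The iECDC libraries were at or next to the floor and the lowest of all, and of the treated libraries only replicate 2 was below the pECDC level. From pECDCs to iECDCs Sparcl1 fell by 4.35 on the log2 scale (SE 0.342, edgeR adjusted p = 7.45e-05). On pooled counts, 218 against 8, pECDCs had 21.98 times the level of iECDCs (exact 95% interval 10.96 to 51.5). Sparcl1 was higher in SB431542 than in iECDC libraries by 5.79 on the log2 scale (SE 0.853, edgeR adjusted p = 0.00309), on 481 against 8 pooled counts, a ratio of 58.4 (29.4 to 136). Against pECDCs the log2 fold change was 1.45 (SE 0.583, edgeR adjusted p = 0.0926), and 1.92 without SB431542 replicate 2 (edgeR adjusted p = 8.79e-09). Reads of an antisense gene, Gm26703, cannot be told apart from those of Sparcl1 if strand was not used.

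Sparc was far above Sparcl1 in every library. The FPKM ratio of Sparc to Sparcl1 was 505, 406 and 478 in pECDC replicates, between 5157 and 21676 in iECDC replicates and 135, 357 and 85.1 in SB431542 replicates, without overlap between groups.

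Some mesenchymal markers, namely Pdgfra, Pdgfrb and Col3a1, were called in the same directions as Thbs2 and Sparcl1. They were lower in iECDCs than in pECDCs and higher in SB431542 than in iECDC libraries. No epicardial marker was called in both of these comparisons. Of the 7 mesenchymal and cardiosphere markers, 4 were lower and 1 higher in iECDCs than in pECDCs, and 4 were higher in SB431542 than in iECDC libraries, with 3 not called. Their summed level was 975 to 999 FPKM in pECDCs, 802 to 909 FPKM in iECDCs and 688 to 1279 FPKM in SB431542 libraries, with replicate 2 the lowest. Of 6 epicardial markers, 1 of 3 tested was lower in iECDCs than in pECDCs. In SB431542 against iECDC libraries 3 of 4 tested were higher. Among these was Upk3b, a uroplakin, at low levels (1.28 ± 0.103 against 0.120 ± 0.0570 FPKM, log2 fold change 3.45). Their summed level, nearly all of it Tbx18, was 21.1 to 21.9, 19.7 to 26.3 and 27.7 to 45.3 FPKM in the 3 groups. Tbx18 was not called in iECDCs against pECDCs (edgeR adjusted p = 0.257) or in SB431542 against iECDCs (edgeR adjusted p = 0.0626). The part of these markers in the differences of Thbs2 and Sparcl1 was not tested.

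Smoc1 (ENSMUSG00000021136, chromosome 12, 81026808 to 81186414, plus strand) encodes a calcium-binding Sparc relative of basement membranes that antagonises BMP signals. Its counts were 143, 119 and 124 in pECDC, 958, 802 and 562 in iECDC and 306, 788 and 289 in SB431542 libraries. The treated libraries lay between the untreated groups, except that replicate 2, at 10.7 FPKM, was just above iECDC replicate 3, at 10.5 FPKM. Smoc1 was 7.70-fold higher in iECDCs than in pECDCs (log2 fold change 2.94, SE 0.132, edgeR adjusted p = 2.31e-06). SB431542 against iECDC gave a log2 fold change of -0.89 (6.76 ± 3.43 against 12.7 ± 1.92 FPKM, SE 0.307, edgeR adjusted p = 0.0586), which did not pass, and without SB431542 replicate 2 it was -1.40 (edgeR adjusted p = 7.50e-05). Against pECDCs Smoc1 was 4.17-fold higher in SB431542 libraries (log2 fold change 2.06, SE 0.333, edgeR adjusted p = 0.00425).

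Smoc2 (ENSMUSG00000023886, chromosome 17, 14279506 to 14404790, plus strand), the closest relative of Smoc1, had 4, 0 and 0 counts in pECDC, 0, 0 and 1 in iECDC and 2, 0 and 1 in SB431542 libraries. It passed the filter on low counts in no comparison, and no difference was detectable at this depth.

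Fn1 (ENSMUSG00000026193, chromosome 1, 71585520 to 71653200, minus strand) was at 338, 331 and 304 FPKM in pECDCs, 325, 367 and 469 FPKM in iECDCs and 728, 434 and 659 FPKM in SB431542 libraries. All treated libraries were above the pECDCs, and treated replicate 2 was below iECDC replicate 3, so that the treated and iECDC groups overlapped. Fn1 was 1.88-fold higher in SB431542 than in pECDC libraries (607 ± 154 against 325 ± 17.9 FPKM, log2 fold change 0.91, SE 0.193, edgeR adjusted p = 0.0113). Without pECDC replicate 2 or 3 this call was just lost (edgeR adjusted p = 0.0514 and 0.0574). SB431542 against iECDC gave 0.66 (SE 0.230, edgeR adjusted p = 0.0602), and 0.85 without SB431542 replicate 2 (edgeR adjusted p = 0.00158). For iECDCs against pECDCs the log2 fold change was 0.24 (SE 0.124, edgeR adjusted p = 0.221). Fn1 took 20.7% to 28.4% of the counts of the 10 genes in untreated libraries and 37.3% to 43.3% in treated ones. Gene counts do not resolve the 17 annotated Fn1 transcripts, so the splice forms of fibronectin were not compared.

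Counted over the genes, iECDCs against pECDCs gave 1 gene higher (Smoc1), 2 lower (Thbs2 and Sparcl1) and 6 not called of the 9 tested, or 3 called, beside 16.4% of all 13752 tested genes (7.21% higher and 9.21% lower). FPKM did not overlap between these groups for 7 of the 9 genes, beside 39.9% of all genes, and the median log2 fold change was -0.19 beside -0.00 for all genes. SB431542 against iECDCs gave 2 higher (Thbs2 and Sparcl1), 0 lower and 6 not called of 8, beside 30.0% of 13559 genes (16.0% higher and 14.0% lower). Groups did not overlap for 3 of the 8, beside 46.5%, and the median was -0.14. At an unadjusted edgeR p under 0.05 Thbs1 and Smoc1 would be counted as lower and Fn1 as higher, beside 5889 of all 13559 genes at that threshold. DESeq2 called 5 of the 8 genes, those 3 among them, beside 33.1% of all genes. SB431542 against pECDCs gave 2 higher (Smoc1 and Fn1), 2 lower (Thbs3 and Tnc) and 4 not called of 8, beside 34.8% of 14015 genes (17.9% higher and 17.0% lower). Here 6 of the 8 did not overlap, beside 51.5%, and the median was 0.09. The 3 comparisons share libraries, so they are not independent of each other.

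**Figure D3:**
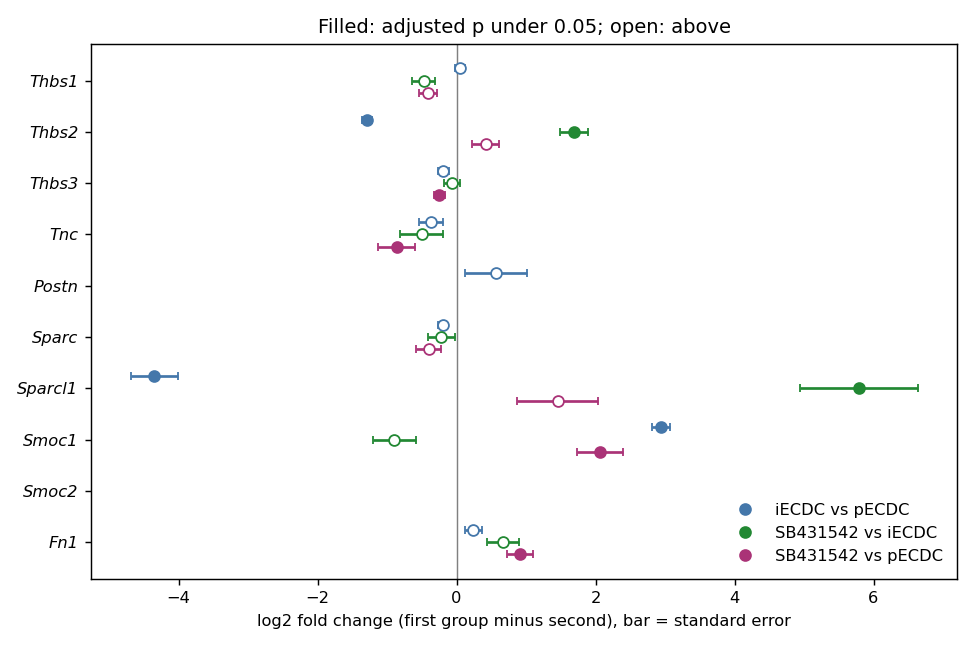
Log2 fold change (horizontal axis, first group minus second) of each gene in the 3 comparisons, with bars of 1 standard error. Filled points passed an adjusted p of 0.05 in edgeR, open points did not. With the main filter Smoc2, as well as Postn in the comparisons with SB431542, was not tested. Thbs2 and Sparcl1 lie left of 0 in iECDC vs pECDC and right of 0 in SB431542 vs iECDC, and Smoc1 lies on the opposite sides.

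The number of called genes in the treated comparisons depended on SB431542 replicate 2. Without this library 6 of the 8 genes were called against iECDCs, 3 higher (Thbs2, Sparcl1 and Fn1) and 3 lower (Thbs1, Tnc and Smoc1), and all 8 were called against pECDCs, 4 higher and 4 lower. Of all genes tested in these fits, 50.2% and 64.1% were called. With iECDC replicate 3 left out as well, the same 6 genes were called against iECDCs, beside 64.5% of all genes. The TGF-β target gene Ctgf, which fell with SB431542, was also higher in this library than in the other treated ones. It was at 27.4, 70.9 and 30.7 FPKM in treated replicates 1, 2 and 3, against 431 to 459 FPKM in iECDCs. The summed level of 4 smooth muscle markers, nearly all of it Acta2, was 139, 331 and 139 FPKM in the treated libraries, 817, 853 and 1922 FPKM in iECDC replicates 1, 2 and 3 and 721 to 744 FPKM in pECDCs. Among iECDCs it was thus highest in the library with the lowest Tnc and the highest Fn1 of its group. Among treated libraries the reverse held, as the sum was highest in replicate 2, which had the highest Tnc and the lowest Fn1 of its group. The part of these markers in the differences was not tested.

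**Figure D4:**
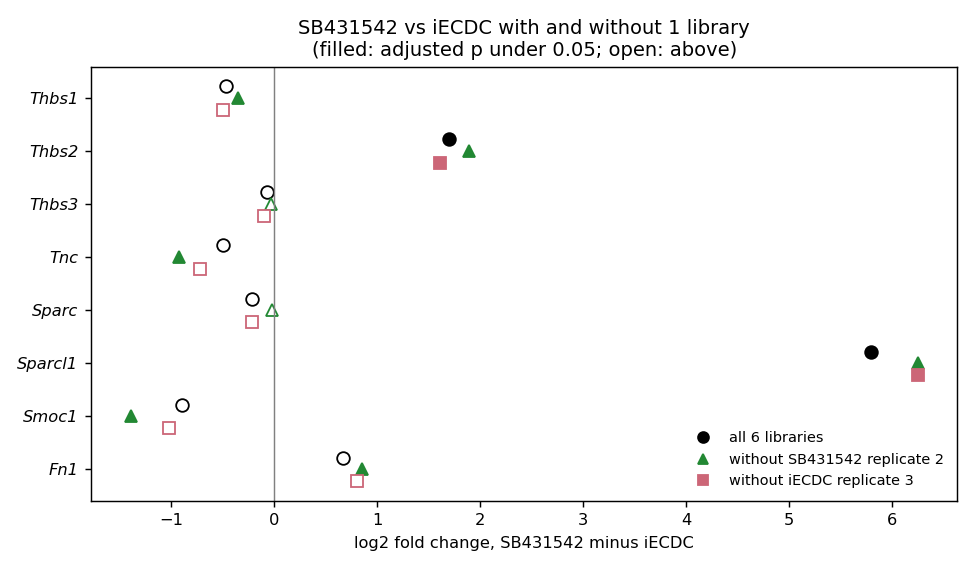
Log2 fold change of SB431542 against iECDC libraries (horizontal axis) for the 8 tested genes, with all 6 libraries and without each of the libraries that stood apart. Filled symbols passed an adjusted p of 0.05 in edgeR. Without SB431542 replicate 2 the points of Thbs1, Tnc, Smoc1 and Fn1 are also filled.

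Other genes of these pathways were taken from lists, with values for at most 4 of the tested genes that moved most. Of 18 further matricellular genes 10 were tested, and 2 were higher and 1 lower in iECDCs than in pECDCs, 3 higher and 5 lower in SB431542 than in iECDC libraries and 2 higher and 6 lower in SB431542 than in pECDC libraries. Their median log2 fold changes were -0.13, -0.81 and -0.78. In SB431542 against iECDC the lower genes included Ctgf, a CCN family protein that fibrotic tissue produces (43.0 ± 24.2 against 444 ± 13.9 FPKM, log2 fold change -3.36), and its relative Wisp1 (2.69 ± 0.760 against 27.4 ± 6.43 FPKM, -3.33). The higher genes included Nov, also a CCN protein (13.3 ± 4.44 against 1.96 ± 0.399 FPKM, 2.77), and Tgfbi, a periostin relative named for its induction by TGF-β (7.01 ± 4.32 against 0.608 ± 0.0784 FPKM, 3.53). Tgfbi also differed in iECDCs against pECDCs, where it fell by 2.74 on the log2 scale. It thus had the same directions as Thbs2 and Sparcl1.

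Of 19 receptors and partners of these proteins, 6 were lower and 1 higher of 18 tested in iECDCs against pECDCs, 6 lower and 3 higher of 16 in SB431542 against iECDCs and 7 lower and 3 higher of 17 in SB431542 against pECDCs. Their median log2 fold changes were -0.14, -0.38 and -0.51. In SB431542 against iECDC libraries the integrin subunit gene Itgb5 was lower (14.1 ± 4.05 against 75.3 ± 13.8 FPKM, log2 fold change -2.41) and Itgb8, a subunit of an integrin that activates TGF-β, was higher (4.67 ± 1.40 against 0.842 ± 0.148 FPKM, 2.48). Itga4, a subunit of a fibronectin receptor, was lower at low levels (0.0792 ± 0.0629 against 0.476 ± 0.0410 FPKM, -2.54), and Fap, a protease of activated fibroblasts, was higher (0.872 ± 0.423 against 0.0559 ± 0.0202 FPKM, 3.97). Of 8 TGF-β target genes, 6 were lower and 1 higher in SB431542 than in iECDC libraries, with a median log2 fold change of -2.75, and 6 were lower than in pECDCs and 2 were not called, with a median of -2.48. Among those that moved most were Ltbp2 (-4.40), Pmepa1 (-4.29) and Tgfbi (3.53). Between iECDCs and pECDCs 3 were higher and 2 lower, with a median of 0.12.

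For the 2 genes with the widest range of group means on the log2 CPM scale, Sparcl1 and Postn, the genes with the most similar pattern over the 9 libraries were looked up among 14210 genes. They were Bbs1, Lbp and Sesn3 for Sparcl1, each with r of 0.99, and Gm14584, Sh3bgrl3 and Dusp28 for Postn, with r of 0.96 to 0.97, the values of Postn being near the floor. Lbp, which encodes the lipopolysaccharide-binding protein, was at 0.447, 0.510 and 0.550 FPKM in pECDC, 0.0718, 0.0504 and 0.0539 in iECDC and 1.37, 0.482 and 1.79 in SB431542 replicates. It was lowest in iECDCs, and treated replicate 2 was the lowest treated library, as for Sparcl1. Among the genes described here, Thbs2 and Sparcl1 had an r of 0.97 and Tnc and Fn1 an r of -0.95 over the 9 libraries. These are descriptions over libraries that share their groups.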

How the data were processed

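RNA sequencing of 3 pECDC, 3 iECDC and 3 SB431542 libraries was analysed, grouped by the sample labels, while the study's methods give 2 biological replicates per condition. The authors deposited raw read counts for each gene. The FPKM values that the authors deposited are these counts per gene length, scaled by 1 constant for a library, with 1 value of a gene not described here off by more than 1 percent among values with at least 50 counts. The submitters' processing notes name TopHat2 2.0.9, Bowtie2 2.0.6 and mm9, but 53499 of 54532 genes had the start and end of GENCODE M21 on GRCm38, and coordinates are given on that build. The counting program and its use of strand are not given in the sources used here. Besides the overlaps named above, 8030451A03Rik overlaps Tnc, 4930474M22Rik overlaps Smoc2 and Apol7d overlaps Fn1 on the other strand. The same limit therefore holds for these genes. Columns of the authors' own comparisons (fold changes and p-values) and group means were not used.

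The main test was run in R 4.3.3 with edgeR 4.0.16 (TMM, filterByExpr with a minimum count of 10 and a minimum total of 15, quasi-likelihood test, Benjamini-Hochberg adjustment over all genes tested), with only the 2 compared groups in the fit. Ratios of low counts carry exact binomial intervals at 95%, which cover counting error only. On simulated counts with 200 genes changed, edgeR recovered 174 with 12 false calls for iECDC vs pECDC (13752 genes), 167 with 14 for SB431542 vs iECDC (13559 genes) and 170 with 6 for SB431542 vs pECDC (14015 genes). The simulated counts had a common dispersion for all genes, changes of equal size and no library that stood apart. These rates therefore need not hold for the libraries used here.

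All 10 genes were named in every comparison, from each list at most the 4 tested genes with the largest absolute log2 fold change, and for the 2 genes with the widest range the 3 genes with the highest Pearson r. The promoters printed and the library values of Ctgf and Acta2 were chosen after their values were seen. The genes and lists were chosen with earlier results of these data known. The single results of 1 listed gene are not reported here.

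Alternatives were DESeq2 1.42.0, RLE and upper-quartile factors, no filter, a minimum of 10 counts in each library, a fit to all 9 libraries, a block for the replicate number, limma 3.58.1 on log2(FPKM + 1) or log2(FPKM + 0.1), and leaving out each library. Leaving out both libraries that stood apart was added after seeing the data. Tables were made with pandas 2.3.3, numpy 2.4.6 and scipy 1.17.1 under python 3.11.15, and figures with matplotlib 3.10.9.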

Additional observations from a re-analysis of the deposited data

How the results depend on the processing

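No log2 fold change of the 10 genes changed sign under any alternative in which it was tested. Thbs2, Sparcl1 and Smoc1 in iECDC vs pECDC, Thbs2 and Sparcl1 in SB431542 vs iECDC and Smoc1 in SB431542 vs pECDC passed in every alternative that tested them. Sparcl1 was not tested with 10 counts in every library in the comparisons with iECDCs, and with limma on log2(FPKM + 1) its log2 fold changes were smallest, -0.997 and 1.76, since the pseudocount is large beside its level. Of the 10 genes, 3 were called in iECDC vs pECDC, 6 with no filter on low counts (12.3% of all genes) and 3 to 5 with 1 library left out, the 5 without iECDC replicate 3 (31.7%). In SB431542 vs iECDC 2 were called, 5 with DESeq2 (33.1% of all genes), 6 with no filter (19.2%), 1 with 10 counts in every library (29.7%), 6 with all 9 libraries in the fit (41.2%), 6 without both libraries that stood apart (64.5%) and 2 to 6 with 1 library left out, the 6 without SB431542 replicate 2 (50.2%). In SB431542 vs pECDC 4 were called, 7 with all 9 libraries (34.8%) and 1 to 8 with 1 library left out, the 8 without SB431542 replicate 2 (64.1%) and the 1 without pECDC replicate 2 or 3 (17.5% and 17.2%). In the comparisons with SB431542, the counts with all 9 libraries and with no filter include Postn, which the main fits did not test there.

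Over all genes, 2258, 4061 and 4881 were called in these comparisons. Leaving out 1 library gave 1036 to 4467, 1707 to 7001 and 2453 to 9188, all 9 libraries in the fit gave 671 in iECDC vs pECDC, and leaving out both libraries that stood apart gave 8951 in SB431542 vs iECDC. Replicate numbers did not pair the samples, since libraries of the same number correlated in their deviations by -0.19 to 0.03. With the replicate block 1791, 3038 and 3886 genes were called, and 3 of the 10 genes in each comparison, Smoc1 being gained in SB431542 vs iECDC and Thbs3 lost in SB431542 vs pECDC. The share of the 10 genes was 0.922%, 0.882% and 0.836% of the summed FPKM in pECDC, iECDC and SB431542 libraries, and on counts the ratio of Thbs1 to Thbs2 was 66.8 in pECDCs and 169 in iECDCs and that of Sparc to Sparcl1 597 in pECDCs. The cause of these changes was not tested. Depth limits Postn, Smoc2 and Sparcl1 in iECDCs, which had at most 12 counts in a library.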
